A study of Mus musculus with 10 samples.

Results

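A set of 10 genes of the Polycomb repressive complexes was followed through H3K4me3 maps of naïve extraembryonic endoderm (nEnd), an in vitro culture of primitive endoderm (PrE). The genes were *Ezh1*, *Ezh2*, *Eed*, *Suz12*, *Jarid2*, *Mtf2*, *Phf19*, *Rnf2*, *Cbx2* and *Cbx7*, which is 10 of 21755 protein-coding genes annotated on chromosomes 1 to 19 and X. They were chosen by name, with earlier results of these data known. A gene was called marked in a library where a peak overlapped any of its promoter windows. These reach from 1000 bp before a transcription start site (TSS) to 100 bp after it. H3K4me3 was measured by CUT&Tag, in which an antibody tethers a transposase to the histone mark so that the DNA around it is cut and tagged. The cells were untreated nEnd of one OCT4-mCherry reporter line, sorted by FACS on the reporter and on surface PDGFRA, so each population is defined by those 2 proteins and all of them share one genetic background. There were 4 libraries of Oct4+ nEnd, 3 of double positive (DP) nEnd and 3 of Pdgfra+ nEnd, each a replicate of its population.

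Polycomb proteins keep developmental genes silent through histone marks. Polycomb repressive complex 2 (PRC2) methylates lysine 27 of histone H3. EZH1 and EZH2 are its alternative catalytic subunits, EED and SUZ12 form its core, and JARID2, MTF2 and PHF19 are accessory subunits that guide it to chromatin. PRC1 ubiquitinates histone H2A through RNF2 (RING1B), and in its canonical form a chromodomain protein such as CBX2 or CBX7 binds the mark left by PRC2. CBX7 is the main such protein of pluripotent stem cells. H3K4me3 lies at promoters of transcribed genes, so the maps report on the promoters of the genes that encode Polycomb proteins and not on where those proteins bind.

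The promoters that the results turn on most are shown first, with one that was unmarked. The sequences are RefSeq promoters (GRCm38.p6), each from 250 bases before to 50 bases after a start site, written 5′ to 3′ on the strand of the gene with CpG dinucleotides in capitals.
*Mtf2*, principal promoter, chr5:108065424-108065723, plus strand: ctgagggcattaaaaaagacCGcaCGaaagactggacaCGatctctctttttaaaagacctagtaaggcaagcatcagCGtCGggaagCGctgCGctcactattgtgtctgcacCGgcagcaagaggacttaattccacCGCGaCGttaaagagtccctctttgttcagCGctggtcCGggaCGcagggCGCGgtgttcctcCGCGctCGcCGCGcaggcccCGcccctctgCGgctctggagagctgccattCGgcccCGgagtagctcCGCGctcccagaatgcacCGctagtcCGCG
*Mtf2*, internal start site, chr5:108077915-108078214, plus strand: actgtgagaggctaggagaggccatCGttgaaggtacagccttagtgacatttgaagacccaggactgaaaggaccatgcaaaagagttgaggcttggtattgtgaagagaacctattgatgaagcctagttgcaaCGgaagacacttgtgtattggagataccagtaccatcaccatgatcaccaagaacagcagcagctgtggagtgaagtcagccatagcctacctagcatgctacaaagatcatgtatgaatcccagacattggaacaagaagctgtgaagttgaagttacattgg
*Cbx7*, principal promoter, chr15:79932597-79932896, minus strand: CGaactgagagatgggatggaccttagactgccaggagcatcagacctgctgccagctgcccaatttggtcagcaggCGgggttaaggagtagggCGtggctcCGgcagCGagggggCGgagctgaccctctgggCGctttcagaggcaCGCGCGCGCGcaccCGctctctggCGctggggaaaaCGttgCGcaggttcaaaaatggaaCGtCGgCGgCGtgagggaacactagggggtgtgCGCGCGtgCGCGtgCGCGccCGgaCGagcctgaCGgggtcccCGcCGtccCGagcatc
*Ezh1*, chr11:101226414-101226713, minus strand: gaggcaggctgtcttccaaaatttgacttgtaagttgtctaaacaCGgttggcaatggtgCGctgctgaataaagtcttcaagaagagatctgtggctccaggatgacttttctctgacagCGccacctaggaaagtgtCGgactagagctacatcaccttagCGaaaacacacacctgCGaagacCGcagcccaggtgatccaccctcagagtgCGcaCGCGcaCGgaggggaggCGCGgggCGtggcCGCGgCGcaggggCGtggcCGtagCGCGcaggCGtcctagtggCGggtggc
*Phf19*, chr2:34913927-34914226, minus strand: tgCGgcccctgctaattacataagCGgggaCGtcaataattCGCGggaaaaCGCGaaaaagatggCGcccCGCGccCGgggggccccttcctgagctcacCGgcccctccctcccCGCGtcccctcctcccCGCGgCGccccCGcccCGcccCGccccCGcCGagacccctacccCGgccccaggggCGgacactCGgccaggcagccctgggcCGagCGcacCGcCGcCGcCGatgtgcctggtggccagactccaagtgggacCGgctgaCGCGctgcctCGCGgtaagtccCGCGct
The principal *Mtf2* promoter held 30 CpG, the *Cbx7* promoter 33, the *Ezh1* promoter 23 and the *Phf19* promoter 38, against a median of 7 over 32412 RefSeq promoters. The internal *Mtf2* start site held 2. RefSeq sequences were matched for 9 of the 10 genes, with 11 promoters in all. Apart from the internal *Mtf2* site, the matched promoters held between 17 CpG, at *Eed*, and 41, at *Suz12*. Both strands were searched for the ETS motif CCGGAAGT, the E2F motifs TTTCCCGC and TTTGGCGC, the Sp and KLF motif GGGCGGGG, the E-box CACGTG, the CRE TGACGTCA and the octamer ATGCAAAT. GGGCGGGG lay in 5 of the 11 promoters and in 17.8% of all promoters. TTTCCCGC lay in 2, those of *Suz12* and *Phf19*, against 1.08% of all promoters, and TTTGGCGC in 1, that of *Ezh2*, against 0.521%. The other 4 motifs, which 3.94%, 7.19%, 1.81% and 1.76% of all promoters hold, matched none of the 11. These matches are descriptions of the letters in the windows.

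The libraries held between 3477 and 10545 peaks. Oct4+ nEnd replicate 3 had the fewest, and is the one library that the authors' consensus list for Oct4+ nEnd does not rest on. Pdgfra+ nEnd replicate 2 had the narrowest peaks, with a median width of 2204 bp against 3032 to 4222 bp in the other 9 libraries. Of 6 epiblast marker promoters, 6 were marked in each Oct4+ library, 5 or 6 in the DP libraries and 0 to 2 in the Pdgfra+ libraries. Of 7 PrE markers, the DP and Pdgfra+ libraries all had 7 marked, and the Oct4+ libraries had 0 to 4, the 4 being *Pdgfra*, *Gata6*, *Gata4* and *Sox17* in replicate 1. Of 5 trophectoderm markers, 0 or 1 were marked in Oct4+ nEnd, 2 or 3 in the DP libraries, and 1 to 3 in Pdgfra+ nEnd. None of 3 mesoderm markers was marked in any library, and of 10 fibroblast markers only *Twist1* was, in 5 libraries. The part of these differences in the results for the Polycomb genes was not tested. In bulk libraries, fewer cells with the mark and less of the mark per cell cannot be told apart.

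The Polycomb genes fell into 4 kinds by marking. *Ezh2*, *Eed*, *Suz12*, *Jarid2*, *Rnf2* and *Cbx7* were marked in all 10 libraries, which is 6 of the 10 genes (60%) against 3616 of the 11632 genes marked in any library (31.1%). *Mtf2* and *Cbx2* were marked in some libraries of every population, *Ezh1* was marked in the DP and Pdgfra+ libraries and in no Oct4+ library, and *Phf19* was marked in 1 library. In the consensus lists 8 of the genes had a promoter peak in the Oct4+ list, 9 in the DP list and 9 in the Pdgfra+ list. *Ezh1* was the gene missing from the Oct4+ list, and *Phf19* was missing from all 3.

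The 3 measures used were taken from the strongest promoter peak of each gene. The total signal is the coverage summed over the peak, and the highest coverage is the level at its summit. Because the coverage was not scaled between libraries, both were turned into percentiles among all peaks of the same library, where 100 is the strongest peak. The third measure was the width of the peak. Sequencing depth is unknown, so no counting intervals are given. The fit was made over 7611 genes with a promoter peak in at least 2 libraries of each population. It took in 8 of the 10 genes and left out *Ezh1* and *Phf19*. Adjusted p-values are from limma with Benjamini-Hochberg adjustment over the 7611 genes, and a difference was called at an adjusted p under 0.05.

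**Figure D1:**
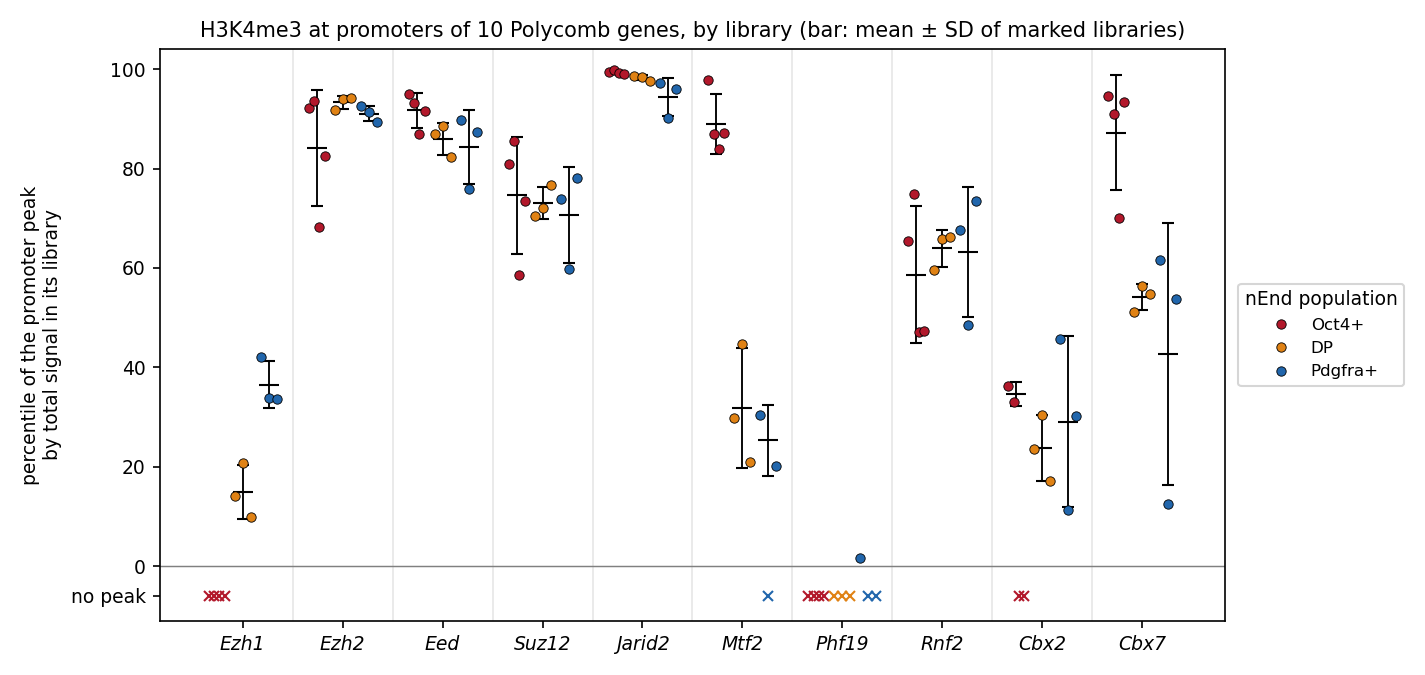
Percentile of the strongest promoter peak by total signal (vertical axis, 0 to 100 within each library) for the 10 Polycomb genes, with 1 point per library, crosses for libraries with no promoter peak, and bars for the mean ± SD of the marked libraries. *Mtf2* and *Cbx7* are higher in the 4 Oct4+ libraries than in the other 6, *Ezh1* has no peak in Oct4+ nEnd, and *Jarid2* is above 90 in every library.

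By total signal, 2 of the 8 genes were called higher in Oct4+ nEnd than in Pdgfra+ nEnd, *Mtf2* and *Cbx7*, against 3.19% of all genes tested. With replicate numbers as blocks it was 1, *Mtf2*, against 2.47%. No other library has the number of Oct4+ replicate 4, so it adds nothing to a blocked difference. One of the 8, *Mtf2*, was called higher in Oct4+ nEnd than in DP nEnd, against 0.696% of all genes. None was called lower in Oct4+ nEnd in either comparison. Between DP nEnd and Pdgfra+ nEnd limma called 0 of the 8, as it did 0% of all genes, and at an unadjusted p under 0.05 there were 0 of the 8 and 184 of the 7611 (2.42%). The median difference of the 8 genes was 5.23 percentile points for Oct4+ minus Pdgfra+, where the median of all genes was -6.12, and 3.63 points for Oct4+ minus DP, where it was -6.37. The 3 comparisons share libraries. Over all genes, 243 were called higher and 545 lower in Oct4+ nEnd than in Pdgfra+ nEnd, and 53 higher and 264 lower than in DP nEnd. These numbers depended on single libraries. Against Pdgfra+ nEnd, leaving out 1 library gave 93 (without Pdgfra+ replicate 3) to 370 (without Oct4+ replicate 3) higher and 159 (without Pdgfra+ replicate 3) to 826 (without Oct4+ replicate 1) lower. More were higher than lower in 1 of these 10 fits, the one without Pdgfra+ replicate 1, with 356 and 266. They were 158 and 342 without Pdgfra+ replicate 2, and 170 to 182 and 320 to 329 without 1 of the DP libraries. Against DP nEnd, 3 to 7 were higher and 54 to 59 lower when 1 of the DP libraries was left out. There were 33 and 411 without Oct4+ replicate 2, 40 and 635 without Oct4+ replicate 1, 111 and 401 without Oct4+ replicate 3, 93 and 257 without Pdgfra+ replicate 2, and 18 and 130 without Pdgfra+ replicate 3. With percentiles taken over only the 3616 genes marked everywhere, the numbers were 775 and 910, and 613 and 669. The median difference of all genes was then -0.82 points against Pdgfra+ nEnd and -0.17 against DP nEnd. On that scale *Eed*, *Jarid2* and *Cbx7* were the genes called higher than in Pdgfra+ nEnd, against 21.4% of the 3616, and *Eed* and *Cbx7* those called higher than in DP nEnd, against 17%, since *Mtf2* is not marked everywhere.

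**Figure D2:**
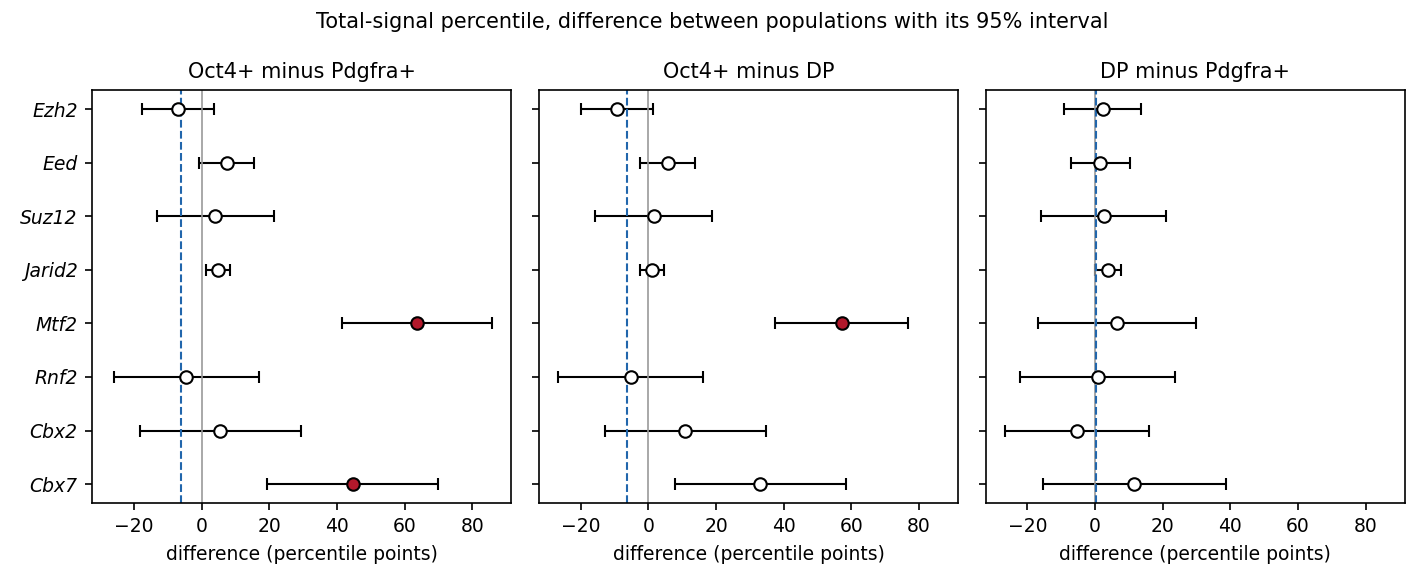
Difference in total-signal percentile between populations (horizontal axis, percentile points) for the 8 Polycomb genes in the fit, with 95% intervals from limma. Filled points passed an adjusted p of 0.05 and dashed lines mark the median of all genes, so the 3 filled points are *Mtf2* at 63.7 and *Cbx7* at 44.6 for Oct4+ minus Pdgfra+, and *Mtf2* at 57.2 for Oct4+ minus DP.

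The genes of the PRC2 catalytic subunits differed from each other in where they were marked. *Ezh2* (ENSMUSG00000029687, chr6:47530139-47595341) had strong promoter peaks in every library. Its total-signal percentiles were 92.2, 93.5, 68.2 and 82.5 in Oct4+ nEnd, 91.8, 93.9 and 94.2 in the DP libraries, and 92.5, 91.3 and 89.4 in Pdgfra+ nEnd. The populations overlapped, with the lowest values in Oct4+ replicates 3 and 4. Oct4+ minus DP was -9.20 points (95% interval -19.9 to 1.48, adjusted p = 0.28), and Oct4+ minus Pdgfra+ was -6.95 (-17.6 to 3.73, adjusted p = 0.37). By highest coverage *Ezh2* was at 98.0, 98.5 and 98.6 in the DP libraries and at 67.5 in Pdgfra+ replicate 2.

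*Ezh1* (ENSMUSG00000006920, chr11:101191115-101226463) had no promoter peak in 4 of 4 Oct4+ libraries and had one in 3 of 3 DP and 3 of 3 Pdgfra+ libraries. Marking thus did not overlap between Oct4+ nEnd and the others for 1 of the 10 genes. Of all marked genes, 3.64% were marked in every DP and no Oct4+ library and 2.68% in every Pdgfra+ and no Oct4+ library. The two-sided p of Fisher's exact test was 0.0286 in both comparisons, and 4 libraries against 3 cannot give a smaller one. Adjusted over 11632 genes it was 0.71 for the DP comparison and 0.85 for the Pdgfra+ comparison. No gene passed that adjustment, while 467 and 390 genes had an unadjusted p under 0.05. The *Ezh1* peaks were weak by total signal. Their total-signal percentiles were 14.1, 20.8 and 9.84 in the DP libraries, and 42.0, 33.8 and 33.7 in Pdgfra+ nEnd, so the 2 populations did not overlap. The difference was -21.6 points (p = 0.10 by an exact permutation test, two-sided, which with 3 libraries a side cannot give less). By highest coverage the peaks ranked higher, at 30.3, 31.1 and 28.9 in the DP libraries, and at 56.8, 79.0 and 56.1 in Pdgfra+ nEnd. Those values did not overlap either, with a difference of -33.9 points (exact permutation p = 0.10). The peaks were 1750 to 2905 bp wide in the DP libraries, and 2065 to 3100 bp wide in Pdgfra+ nEnd. The nearest peaks to the principal *Ezh1* start site in the Oct4+ libraries were 26406, 53347, 87938 and 88575 bp away. Without the lowest 25% of the peaks of each list, *Ezh1* was unmarked in DP nEnd too, and remained marked in 3 of 3 Pdgfra+ libraries. Of the 9641 genes then marked, 4.22% were marked in every Pdgfra+ and no Oct4+ library and 0.0726% in every Pdgfra+ and no DP library. With each list cut to its 3477 strongest peaks, *Ezh1* was unmarked in all 10 libraries, so the populations no longer differed in its marking.

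The PRC2 core subunits were well marked in all populations. *Eed* (ENSMUSG00000030619, chr7:89954654-89980983), whose product reads the methylated lysine, had total-signal percentiles of 95.01, 93.1, 87.0 and 91.6 in Oct4+ nEnd, 86.8, 88.6 and 82.3 in the DP libraries, and 89.8, 75.8 and 87.4 in Pdgfra+ nEnd. Oct4+ minus Pdgfra+ was 7.34 points (95% interval -0.77 to 15.4, adjusted p = 0.21). The width of the *Eed* peak separated the populations more. It was 9503, 7196, 6319 and 8061 bp in Oct4+ nEnd, 7379, 6994 and 5303 bp in the DP libraries, and 5870, 2275 and 3868 bp in Pdgfra+ nEnd. Every Oct4+ library was above every Pdgfra+ library. After each library was centred on its median width, the difference was 0.75 on the log2 scale, or 1.69 times wider (SE 0.19, adjusted p = 0.037). The difference was not called without Oct4+ replicate 4 (0.76, adjusted p = 0.066), DP replicate 3 (0.75, adjusted p = 0.052), Pdgfra+ replicate 2 (0.63, adjusted p = 0.14) or Pdgfra+ replicate 3 (0.79, adjusted p = 0.10). It was not called with no centring (1.05, adjusted p = 0.16) or with replicate numbers as blocks (0.76, adjusted p = 0.072). The summit lay within 499 bp of the principal start site in all libraries, and the peak extended downstream of it by 4210 to 7135 bp in Oct4+ nEnd and by 1351 to 3731 bp in Pdgfra+ nEnd. The same peaks cover the promoter of E230029C05Rik, so the signal of the 2 genes cannot be told apart.

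*Suz12* (ENSMUSG00000017548, chr11:79993106-80034123), which holds the PRC2 core together, had total-signal percentiles of 80.8, 85.6, 58.5 and 73.4 in Oct4+ nEnd, 70.4, 72.0 and 76.8 in the DP libraries, and 73.9, 59.7 and 78.1 in Pdgfra+ nEnd. The ranges overlapped, and Oct4+ minus Pdgfra+ was 4.01 points (95% interval -13.4 to 21.4, adjusted p = 0.79). Its peaks were 4416 ± 986 bp wide in Oct4+ nEnd (SD, n = 4), 3437 ± 527 bp in DP nEnd (n = 3) and 2820 ± 488 bp in Pdgfra+ nEnd (n = 3), and no width difference was called. The peak also reached a second promoter 2480 bp downstream in 4 of 4 Oct4+, 3 of 3 DP and 1 of 3 Pdgfra+ libraries. When each list was cut to its 3477 strongest peaks, *Suz12*, *Eed* and *Jarid2* were called higher in Oct4+ nEnd than in Pdgfra+ nEnd, by 27.2, 21.3 and 10.9 points (adjusted p = 0.024, 0.0049 and 0.0016), as were 18.8% of the 3205 genes then tested. Against DP nEnd *Eed* was the 1 called, by 19.2 points (adjusted p = 0.012), as were 10.2% of those genes.

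Among the accessory subunits, *Jarid2* (ENSMUSG00000038518, chr13:44729474-44921643) carried some of the strongest peaks of each list. Its total-signal percentiles were 99.4, 99.7, 99.1 and 99.0 in Oct4+ nEnd, 98.6, 98.4 and 97.6 in the DP libraries, and 97.2, 90.1 and 96.0 in Pdgfra+ nEnd. Each Oct4+ library was above each other library, although by a few points at the top of the scale. Oct4+ minus Pdgfra+ was 4.90 points (95% interval 1.33 to 8.47, adjusted p = 0.073), which was not called. It was called without Pdgfra+ replicate 1, at 6.30 points (adjusted p = 0.034), and on normal scores of the percentiles (adjusted p = 0.0061). The *Jarid2* peak spanned 8385 to 11005 bp in Oct4+ nEnd, 7385 to 8068 bp in the DP libraries, and 8192, 2228 and 5778 bp in Pdgfra+ nEnd. In Pdgfra+ replicate 2 it was split into 2 peaks of 2228 and 1988 bp.

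*Mtf2* (ENSMUSG00000029267, chr5:108065674-108109004) had the largest differences of the 8 fitted genes between Oct4+ nEnd and each other population in the total signal and the width of its strongest peak. It encodes the accessory subunit that binds CpG-rich DNA. Its total-signal percentiles were 97.8, 86.9, 84.0 and 87.1 in Oct4+ nEnd, 29.8, 44.6 and 20.9 in the DP libraries, and 30.3 and 20.2 in Pdgfra+ replicates 1 and 3, and replicate 2 had no promoter peak. The lowest Oct4+ library was thus well above the highest of the others. Oct4+ minus Pdgfra+ was 63.7 points (SE 10.2, adjusted p = 0.0033) and Oct4+ minus DP was 57.2 points (SE 8.99, adjusted p = 0.0056). DP minus Pdgfra+ was 6.49 points (95% interval -17.0 to 30.0, adjusted p = 1). The difference from DP nEnd was no longer called without DP replicate 1 (56.2 points, adjusted p = 0.054) or DP replicate 3 (51.7 points, adjusted p = 0.061). *Mtf2* could not be fitted without Pdgfra+ replicate 1 or 3, since 1 marked Pdgfra+ library then remained. With each list cut to its 3477 strongest peaks, *Mtf2* was marked in 4 of 4 Oct4+ libraries and in 0 of 3 DP and 0 of 3 Pdgfra+ libraries, a pattern shared by 4.13% of the 6344 genes then marked.

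The *Mtf2* peaks also differed in width. They were 22621, 9171, 7031 and 11062 bp wide in Oct4+ nEnd, 4503, 7958 and 3281 bp in the DP libraries, and 3202 and 1729 bp in Pdgfra+ nEnd. Relative to the median width of each library, Oct4+ minus Pdgfra+ was 2.20 on the log2 scale, or 4.6 times wider (SE 0.35, adjusted p = 0.0035). Oct4+ minus DP was 1.32 (SE 0.31, adjusted p = 0.084). By highest coverage *Mtf2* was at the 54.8, 66.0, 82.7 and 69.5 percentile in Oct4+ nEnd, at 28.4, 38.9 and 28.9 in the DP libraries, and at 33.9 and 33.0 in Pdgfra+ nEnd. These groups did not overlap either, and the differences of 34.8 points from Pdgfra+ nEnd (SE 11.3, adjusted p = 0.13) and 36.2 points from DP nEnd (SE 9.99, adjusted p = 0.092) were not called. Relative to the principal start site, the upstream edge of the peak lay at -6031, -6348, -4071 and -5623 bp in the Oct4+ libraries, at -1258, -5361 and -748 bp in the DP libraries, and at -1031 and -495 bp in Pdgfra+ replicates 1 and 3. Summits were 203 to 522 bp downstream of the start site in all marked libraries.

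A second *Mtf2* peak covered the internal start site printed above, 12423 bp downstream of the principal one, in the 4 Oct4+ libraries. The transcript that starts there is annotated as non-coding. It was a separate peak of 6590, 4754 and 7608 bp in replicates 2, 3 and 4, at total-signal percentiles of 51.9, 0.75 and 45.5, and in replicate 1 it was joined to the main peak. None of the 6 DP and Pdgfra+ libraries had a peak there. The consensus peak at *Mtf2* was 22938 bp wide in Oct4+ nEnd, wider than or as wide as 99.8% of that list, against 8606 bp (92.9%) in the DP libraries, and 3202 bp (17.8%) in Pdgfra+ nEnd.

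**Figure D3:**
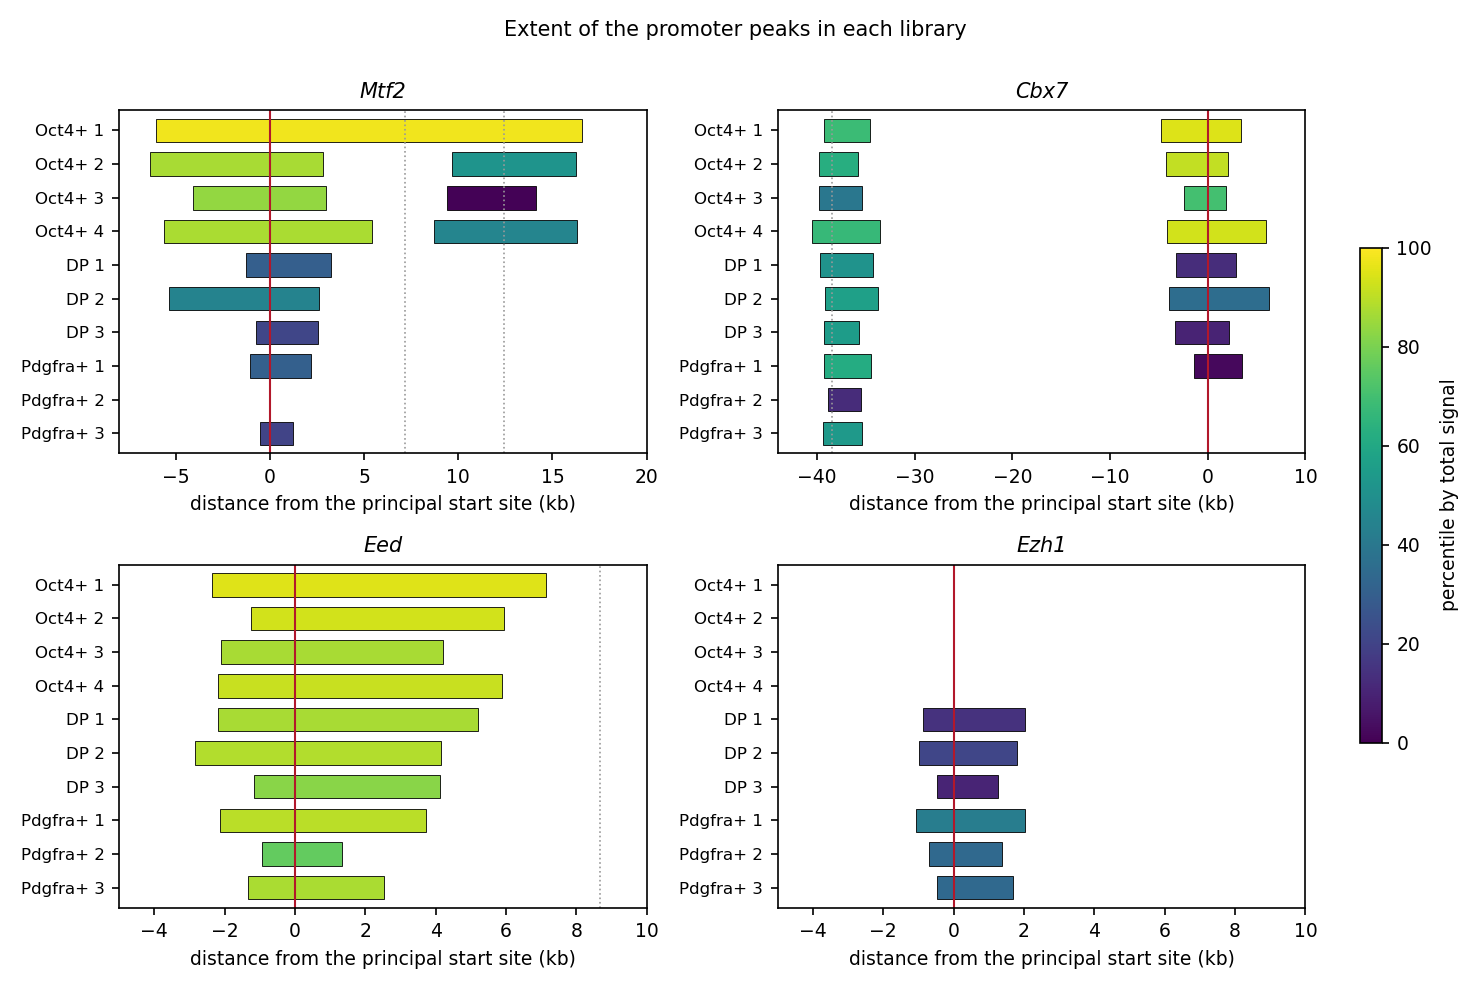
Extent of each promoter peak of *Mtf2*, *Cbx7*, *Eed* and *Ezh1* in each library (rows), as distance from the principal start site in kb in the direction of transcription, coloured by total-signal percentile; solid lines mark the principal start site and dotted lines other promoters in view. The Oct4+ libraries show broad, high-ranking peaks at *Mtf2* and at the principal *Cbx7* promoter, a further *Mtf2* peak over the internal start site, and no peak at *Ezh1*.

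*Phf19* (ENSMUSG00000026873, chr2:34893757-34914026), a relative of *Mtf2*, was unmarked at its principal promoter in 10 of 10 libraries. Its only promoter peak was in Pdgfra+ replicate 1, the library with the most peaks, at the 1.61 percentile by total signal. That peak of 3172 bp lay 8237 to 11408 bp downstream of the principal start site, over internal start sites of non-coding transcripts. In the other 9 libraries the nearest peak was 40860 to 113275 bp from the principal start site. With 1 marked library the gene was left out of the fit. The two-sided p of Fisher's exact test of its marking in Oct4+ against Pdgfra+ nEnd was 0.43 (adjusted p = 1).

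Of the PRC1 genes, *Rnf2* (ENSMUSG00000026484, chr1:151458004-151500955), the ubiquitin ligase, differed little. Its total-signal percentiles were 65.4, 74.8, 47.1 and 47.4 in Oct4+ nEnd, 59.6, 65.9 and 66.2 in the DP libraries, and 67.6, 48.5 and 73.5 in Pdgfra+ nEnd. The populations overlapped, and the difference was -4.54 points for Oct4+ minus Pdgfra+ (95% interval -26.0 to 16.9, adjusted p = 0.81) and -5.26 for Oct4+ minus DP (-26.7 to 16.2, adjusted p = 0.79). By highest coverage its peaks ranked higher than by total signal, at 81.8 to 93.3 in Oct4+ nEnd, 83.0 to 89.5 in the DP libraries, and 56.1 to 93.9 in Pdgfra+ nEnd. They also cover the promoter of Gm36527.

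*Cbx2* (ENSMUSG00000025577, chr11:119022962-119031270) was weakly marked. Its total-signal percentiles were 36.3 and 33.0 in Oct4+ replicates 1 and 2, with no promoter peak in replicates 3 and 4, then 23.5, 30.5 and 17.2 in the DP libraries, and 45.6, 11.4 and 30.2 in Pdgfra+ nEnd. The 2 Oct4+ libraries without the peak were those with the fewest peaks of all, 3477 and 4887. Oct4+ minus Pdgfra+ was 5.55 points over the marked libraries (95% interval -18.2 to 29.3, adjusted p = 0.78).

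*Cbx7* (ENSMUSG00000053411, chr15:79915807-79971119) was marked in every library, and which of its 2 promoters carried the stronger peak differed. The total-signal percentiles of the stronger peak were 94.6, 90.9, 70.0 and 93.3 in Oct4+ nEnd, 51.2, 56.4 and 54.7 in the DP libraries, and 61.6, 12.5 and 53.7 in Pdgfra+ nEnd. All Oct4+ libraries were above all others. Oct4+ minus Pdgfra+ was 44.6 points (SE 11.7, adjusted p = 0.031), and Oct4+ minus DP was 33.1 points (SE 11.7, adjusted p = 0.12). With replicate numbers as blocks the first was 42.6 points (adjusted p = 0.071) and was not called. It was not called either when Oct4+ replicate 4, any 1 of the DP libraries, or Pdgfra+ replicate 2 or 3 was left out, with adjusted p-values of 0.051 to 0.077 and differences of 29.6 points (without Pdgfra+ replicate 2) to 50.2 points (without Pdgfra+ replicate 3). The difference from DP nEnd was called without Pdgfra+ replicate 2 (33.1 points, adjusted p = 0.045), with an overlap of at least 50% of the window (33.1 points, adjusted p = 0.047), without the lowest 25% of the peaks (44.1 points, adjusted p = 0.032) and over the genes marked everywhere (68.0 points, adjusted p = 2.6e-05). With each list cut to its 3477 strongest peaks, *Cbx7* was marked in 4 of 4 Oct4+, 1 of 3 DP and 0 of 3 Pdgfra+ libraries. *Mtf2* and *Cbx7* were then the 2 genes of the 10 marked in every Oct4+ and no Pdgfra+ library, against 6.13% of the 6344 genes, and *Mtf2* the 1 marked in every Oct4+ and no DP library, against 4.59%.

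In Oct4+ nEnd the stronger peak was at the principal promoter, and in the other populations it was at an upstream promoter of other protein-coding transcripts, 38480 bp before it. At the principal promoter the total-signal percentiles were 94.6, 90.9, 70.0 and 93.3 in Oct4+ nEnd, 12.8, 35.5 and 9.44 in the DP libraries, and 2.33 in Pdgfra+ replicate 1, with no peak in Pdgfra+ replicates 2 and 3. At the upstream promoter they were 68.1, 62.6, 39.5 and 66.9 in Oct4+ nEnd, 51.2, 56.4 and 54.7 in the DP libraries, and 61.6, 12.5 and 53.7 in Pdgfra+ nEnd. The populations were far apart at the principal promoter and overlapped at the upstream one. With each promoter on its own and a missing peak at 0, a test added after these values were seen, the principal promoter was 68.0 points higher in Oct4+ nEnd than in DP nEnd (SE 10.2, adjusted p = 0.0051), where 1.46% of 14843 promoters were called higher. No test is given against Pdgfra+ nEnd, where 2 of the 3 libraries had no peak. The upstream promoter differed by 16.7 points from Pdgfra+ nEnd (SE 12.5, adjusted p = 0.38) and by 5.18 points from DP nEnd (SE 12.5, adjusted p = 0.91). The principal *Cbx7* peaks were broad in DP nEnd as well, at 5543 to 10210 bp, but low, with a highest-coverage percentile of 1.18 to 6.05 against 48.2 to 87.8 in Oct4+ nEnd. The consensus list of Pdgfra+ nEnd held the upstream peak alone, and the other 2 lists held both.

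**Figure D4:**
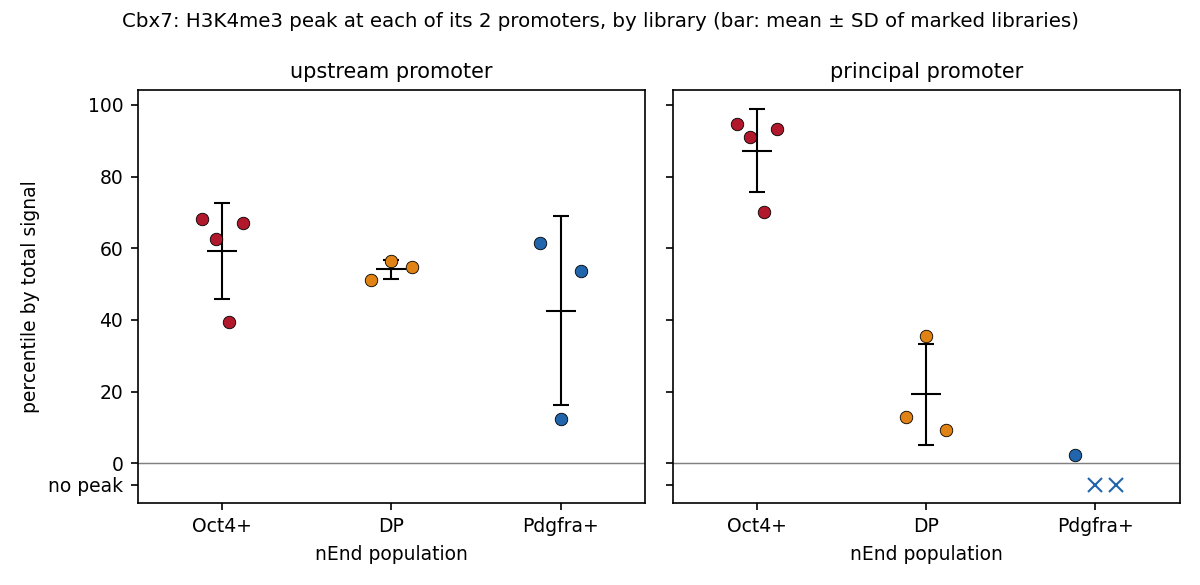
Total-signal percentile (vertical axis) of the H3K4me3 peak at the upstream and at the principal promoter of *Cbx7* in each library, by population, with crosses for libraries with no peak and bars for the mean ± SD of the marked libraries. The principal promoter is at 70.0 or above in Oct4+ nEnd and at 35.5 or below elsewhere, while the upstream promoter overlaps between populations.

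By highest coverage, limma called 0 of the 8 genes in any pair, where 2.48% of all genes were called for Oct4+ against Pdgfra+, 1.43% for Oct4+ against DP and 0% for DP against Pdgfra+. At an unadjusted p under 0.05 there were 2 of the 8, *Mtf2* and *Cbx7*, in each comparison with Oct4+ nEnd, where 18.4% of all genes had one against Pdgfra+ nEnd and 15.6% against DP nEnd. Between DP and Pdgfra+ nEnd there were 0 of the 8, and 1.06% of all genes. *Cbx7* was at the 87.8, 77.9, 48.2 and 79.7 percentile in Oct4+ nEnd, at 37.2, 37.0 and 42.4 in the DP libraries, and at 46.7, 10.7 and 28.8 in Pdgfra+ nEnd. The difference from Pdgfra+ nEnd was 44.7 points (SE 11.7, adjusted p = 0.057), and it was called without Oct4+ replicate 3 (adjusted p = 0.018) and without Pdgfra+ replicate 1 (adjusted p = 0.047).

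By width, 2 of the 8 genes, *Mtf2* and *Eed*, were called wider in Oct4+ nEnd than in Pdgfra+ nEnd, against 2.36% of all genes. With replicate numbers as blocks it was 1, *Mtf2*, against 1.75%. None was called against DP nEnd, where 0.289% of all genes were called in either direction, or between DP and Pdgfra+ nEnd, where 0.131% were. The unadjusted p was under 0.05 for 3 of the 8 in Oct4+ against DP nEnd, *Suz12*, *Mtf2* and *Cbx7*, against 12.5% of all genes. It was for 1, *Mtf2*, in DP against Pdgfra+ nEnd, against 7.03% of all genes. For *Cbx7* the widths were of different promoters, the principal one in Oct4+ nEnd and the upstream one in DP nEnd. At the principal promoter the widths overlapped, at 4261 to 10129 bp in Oct4+ nEnd and 5543 to 10210 bp in DP nEnd. The median log2 difference of the 8 was 0.41 for Oct4+ minus Pdgfra+ and 0.37 for Oct4+ minus DP, beside -0.058 and -0.052 over all genes.

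**Figure D5:**
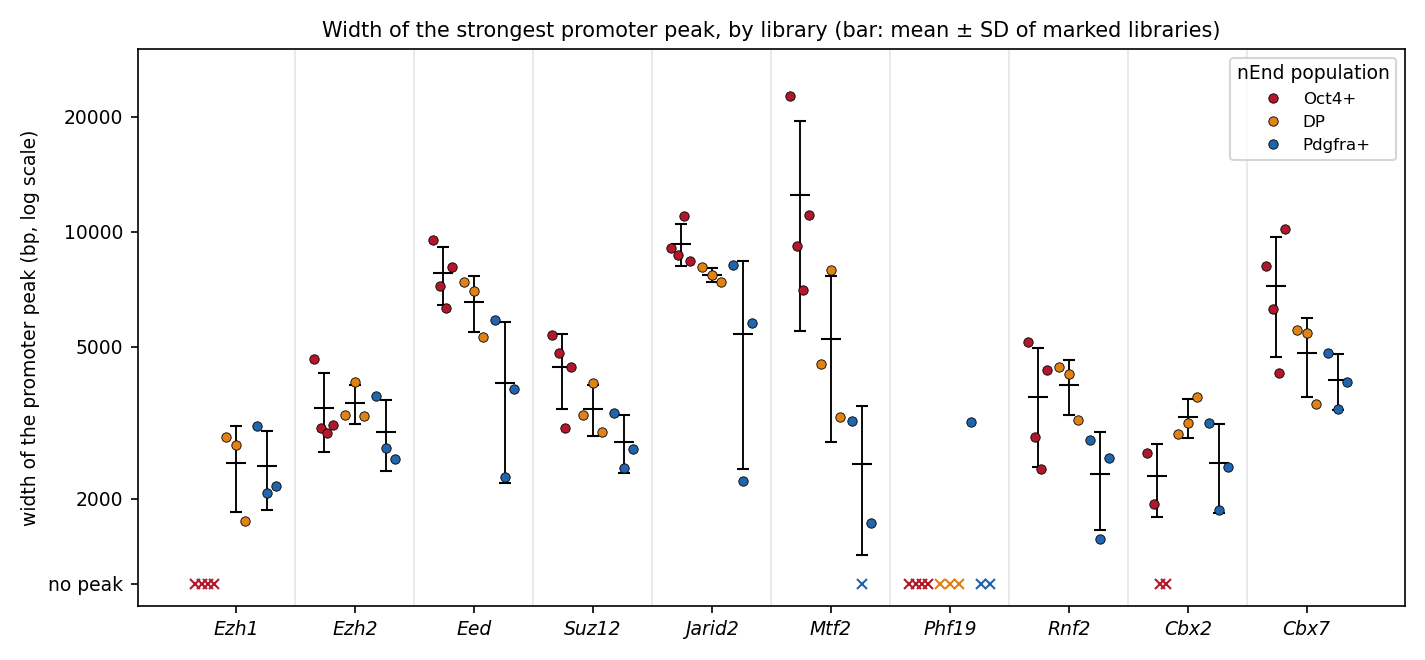
Width in bp (vertical axis, log scale) of the strongest promoter peak of each Polycomb gene, with 1 point per library, crosses for libraries with no promoter peak, and bars for the mean ± SD of the marked libraries. *Mtf2* reaches 22621 bp in 1 Oct4+ library, and the *Eed* peaks of the Oct4+ libraries, 6319 to 9503 bp, are all wider than those of the Pdgfra+ libraries.

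Other Polycomb genes were taken from a list of 39 by role, of which 36 were marked in some library, 16 in all 10, and 28 were in the fit. By total signal 4 of the 28 were called higher and 5 lower in Oct4+ nEnd than in Pdgfra+ nEnd, where 3.19% and 7.16% of all genes were, and 1 was called higher and 5 lower than in DP nEnd, where 0.696% and 3.47% were. Between DP and Pdgfra+ nEnd limma called 0 of the 28. The median difference of the 28 was -7.97 points for Oct4+ minus Pdgfra+ and -10.98 for Oct4+ minus DP, beside -6.12 and -6.37 over all genes. Among canonical PRC1 genes, the chromodomain gene *Cbx6* was higher in Oct4+ nEnd by 55.8 points against Pdgfra+ nEnd (adjusted p = 0.0044) and by 50.4 points against DP nEnd (adjusted p = 0.0070). The polyhomeotic gene *Phc1* was higher by 33.5 points against Pdgfra+ nEnd (adjusted p = 0.0051). Its relative *Phc2* was lower, with differences of -55.2 and -49.8 points from Pdgfra+ and DP nEnd (adjusted p = 0.0080 and 0.024). *Bmi1*, whose product pairs with the RING proteins, was lower as well, with differences of -42.0 and -41.1 points (adjusted p = 0.026 and 0.047).

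Among variant PRC1 genes, the PCGF subunit *Pcgf5* was lower in Oct4+ nEnd, with differences of -78.4 points from Pdgfra+ nEnd (adjusted p = 0.0012) and -71.7 points from DP nEnd (adjusted p = 0.0036). *Yaf2* was lower too, with differences of -55.4 and -41.4 points (adjusted p = 0.0076 and 0.046). *Phc2*, *Pcgf5* and *Yaf2* had a promoter peak in 2 of the 4 Oct4+ libraries, and the other 2 were left out of their fits. The deubiquitinase *Usp7* was higher in Oct4+ nEnd by 22.6 points than in Pdgfra+ nEnd (adjusted p = 0.024). *E2f6* was marked in 0 of 4 Oct4+ libraries and in all 6 others. Of all marked genes, 3.64% were marked in every DP and no Oct4+ library, and 2.68% in every Pdgfra+ and no Oct4+ library. Among PRC2 subunits, the elongin-binding *Epop* was lower in Oct4+ nEnd, with differences of -10.6 points from Pdgfra+ nEnd and -12.2 points from DP nEnd (adjusted p = 0.045 and 0.041). *Phf1*, a relative of *Mtf2* and *Phf19*, was marked in 0 of 4 Oct4+, 2 of 3 DP and 3 of 3 Pdgfra+ libraries, beside the same 2.68% for Pdgfra+ against Oct4+ nEnd. Among opposing enzymes, *Asxl2*, a partner of the H2A deubiquitinase, was higher in Oct4+ nEnd by 10.7 points than in Pdgfra+ nEnd (adjusted p = 0.031).

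Which genes were called depended on single libraries. With replicate numbers as blocks, 3 were higher and 3 lower than in Pdgfra+ nEnd, where 2.47% and 5.4% of all genes were, and *Bmi1* (-40.4 points, adjusted p = 0.053), *Usp7* (21.7 points, adjusted p = 0.054) and *Epop* (-11.9 points, adjusted p = 0.066) were not called. Against Pdgfra+ nEnd, *Bmi1* was also not called without Oct4+ replicate 4 or any 1 Pdgfra+ library (adjusted p = 0.05001 to 0.10). *Usp7* was not called without Oct4+ replicate 1, 2 or 4 or Pdgfra+ replicate 2 or 3 (adjusted p = 0.056 to 0.088). *Epop* was not called without any 1 DP or Pdgfra+ library (adjusted p = 0.054 to 0.14), and *Asxl2* without Oct4+ replicate 4, DP replicate 2, or Pdgfra+ replicate 2 or 3 (adjusted p = 0.051 to 0.088). Against DP nEnd, *Bmi1*, *Phc2*, *Yaf2* and *Epop* were not called without any 1 of the DP libraries (adjusted p = 0.10 to 0.23). Neither was *Bmi1* without Oct4+ replicate 4 or any 1 Pdgfra+ library (adjusted p = 0.053 to 0.083), *Yaf2* without Pdgfra+ replicate 3 (adjusted p = 0.069), *Epop* without Pdgfra+ replicate 1 or 3 (adjusted p = 0.058 and 0.074), nor *Cbx6* without DP replicate 1 or 3 (adjusted p = 0.073 and 0.068). With the blocks, 1 was higher and 2 lower than in DP nEnd, where 0.46% and 2.46% of all genes were, and *Bmi1* (-39.6 points, adjusted p = 0.090), *Yaf2* (-39.7 points, adjusted p = 0.057) and *Epop* (-13.6 points, adjusted p = 0.072) were not called.

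Other calls appeared when 1 library was left out, in genes named here for those values. Against Pdgfra+ nEnd, *Kdm2b* was lower without Oct4+ replicate 1, 2 or 3 (adjusted p = 0.035, 0.018 and 0.047), *Pcgf1* without Oct4+ replicate 1 or 2 (adjusted p = 0.020 and 0.043) and *Scmh1* without Pdgfra+ replicate 2 (adjusted p = 0.040). Against DP nEnd, *Phc1* was higher without Pdgfra+ replicate 2 (adjusted p = 0.024), *Pcgf1* lower without Oct4+ replicate 1 (adjusted p = 0.034) and *Kdm2b* lower without Oct4+ replicate 2 (adjusted p = 0.044). With equal numbers of peaks, *Rybp* was called higher (17.2 points) and *Pcgf1* and *Kdm2b* lower than in Pdgfra+ nEnd, where 18.8% of all genes were called higher and 24.2% lower, and *Bmi1* was not called (adjusted p = 0.081). Against DP nEnd *Phc1*, *Rybp*, *Usp7* and *Asxl2* were then called higher and *Pcgf1* and *Kdm2b* lower, where 10.2% and 19.9% of all genes were, and *Bmi1* was not (adjusted p = 0.10).

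By the strongest peak of each gene, *Mtf2* had the largest range of population means of the 10 genes, 72.1 points with a missing peak at 0. On that scale the principal *Cbx7* promoter on its own differed by 86.4 points between Oct4+ and Pdgfra+ nEnd. The genes whose total-signal percentile followed *Mtf2* most closely over the 10 libraries were *Fndc10* (Pearson's r = 0.991), *Cbx6* (r = 0.990) and *Npcd* (r = 0.990). *Cbx6* and *Npcd* had the same values, since the same peaks stood for both. Their population means were 71.8 in Oct4+ nEnd, 21.4 in the DP libraries, and 10.7 in Pdgfra+ nEnd, against 88.9, 31.8 and 16.8 for *Mtf2*. The libraries of a population share their sort, and these correlations are a description.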

How the data were processed

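H3K4me3 CUT&Tag libraries of 10 sorted nEnd samples were used. Per the labels and the study's methods, reads were processed with bcl2fastq 2.19.1, Bowtie2 and SAMtools 1.12 (build mm10), the authors computed coverage with bedtools 2.26.0, called peaks with SEACR against IgG with its stringent setting and joined them into consensus lists with DiffBind. Bowtie2 settings are not given in the sources used here. The deposited signal is unscaled coverage, as the sum over each peak and the highest value in it, so it was used only as percentiles within a library, and depth is unknown. The consensus lists gave positions only. No column of another sample was present.

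Promoter windows, 93196 in all, were drawn around the start sites of GENCODE M21 (GRCm38, the assembly of mm10), and a 1 bp overlap marked a gene. Where several peaks overlapped a gene's windows, the peak with the highest total signal stood for it in total signal and width, and the highest percentile of any of them was used for highest coverage. A library without a promoter peak was a missing value. All 10 libraries entered 1 limma fit (lmFit and eBayes with trend) per measure, tested on simulated data. Marking was compared with Fisher's exact test.

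The Polycomb genes and lists were chosen with earlier results of these data known. Other Polycomb genes were named where called in a pair by total signal, or marked in every library of one population and none of another. One gene that this rule names is not reported here. The genes most like a Polycomb gene were the 3 with the highest Pearson r to the one with the largest range of population means. Marker lists were drawn up here, mostly from genes that the study names, and fibroblast genes were added. Alternatives were other windows and overlaps, protein-coding transcripts only, equal numbers of peaks, removal of the lowest 25% of peaks, other percentiles and widths, joined peaks, no trend, a replicate block and leaving out each library. The study's methods state 3 biological replicates unless otherwise noted, while the labels number 4 Oct4+ libraries. Whether all 4 are independent biological replicates is not given in the sources used here. Over 3616 genes, deviations of same-numbered Oct4+ and Pdgfra+ libraries correlated at 0.193, 0.126 and 0.137, so the numbers were taken to pair that comparison from the data and not from a label. The other comparisons did not meet this level in every pair. Oct4+ replicate 4 correlated at 0.142 with Pdgfra+ replicate 3, so the pairing by number is not certain. The fits were run in R 4.3.3 with limma 3.58.1, and the rest in Python 3.11.15 with pandas 2.3.3, scipy 1.17.1, numpy 2.4.6 and matplotlib 3.10.9.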

Additional observations from a re-analysis of the deposited data

Results flagged for a closer look

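In 3 of 21 groups of 4 Oct4+ values of the Polycomb genes, 1 library stood apart by Dixon's test, where chance gives about 1 in 20 groups. The total-signal percentile of *Cbx7* was 70.0 in Oct4+ replicate 3, below the other 3 libraries by 0.852 of the range. The highest-coverage percentile of *Eed* was 66.8 in the same library (0.908 of the range), which has the fewest peaks of all, 3477. The *Ezh2* peak was 4651 bp wide in Oct4+ replicate 1, above the other 3 (0.909 of the range). The part of the number of peaks in these values was not tested.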

How the results depend on the processing

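For the 72 differences of single Polycomb genes, 1401 of 1443 values under the alternatives kept their side of the threshold, 17 lost a call and 25 gained one. No difference that was called in either setting turned its direction, and 76 that were called in neither changed sign. *Mtf2* was called in all 17 alternatives that could be fitted for total signal against Pdgfra+ nEnd (60.7 to 73.7 points on the percentile scale) and in all 16 for width, and in 15 of 17 for total signal against DP nEnd. *Cbx7* was called in 13 of 21 against Pdgfra+ nEnd and the width of *Eed* in 13 of 20.

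The numbers of genes called moved as follows. For total signal against Pdgfra+ nEnd (2 genes), 1, *Mtf2*, was called with an overlap of at least 50% of the window and with a replicate block. Over all genes, 234 of 7396 and 188 of 7611 were then higher. Without the lowest 25% of the peaks it was 1, *Cbx7*, against 210 of 5681 genes, as *Mtf2* had left the fit. With equal numbers of peaks 3 were called, *Eed*, *Suz12* and *Jarid2*, against 18.8% of the genes then tested. *Mtf2* and *Cbx7* had then left the fit. With percentiles over the genes marked in all 10 libraries 3 were called, *Eed*, *Jarid2* and *Cbx7*, against 21.4%. On normal scores 3 were called, *Jarid2* joining *Mtf2* and *Cbx7*, where 304 of 7611 genes were higher and 775 lower. With missing peaks at 0 and per promoter *Ezh1* was added, called lower, but its Oct4+ values are then all set to 0, so that call restates the missing peaks. For total signal against DP nEnd (1 gene), 2 were called at 50% of the window, with percentiles over the genes marked in all 10 libraries, without both Oct4+ replicate 3 and Pdgfra+ replicate 2, and per promoter. Over all genes, those higher were then 63 of 7396, 613 of 3616, 200 of 7586 and 217 of 14843 promoters. With equal numbers of peaks (*Eed*) and without the lowest 25% (*Cbx7*) the number stayed at 1, but *Mtf2* had left the fit. Over all genes, 328 of 3205 and 55 of 5681 were then higher. For highest coverage against Pdgfra+ nEnd (0 genes), 1, *Cbx7*, was called with percentiles over the genes marked in all 10 libraries, joined peaks, no trend, without both those libraries and on normal scores. Over all genes, calls were then 467 of 3616, 315 of 7611, 233 of 7611, 347 of 7586 and 352 of 7611. With missing peaks at 0 it was 1, *Ezh1*, against 653 of 11632 genes. Per promoter 2 were called, *Cbx7* and *Ezh1*, against 710 of 14843 promoters. Against DP nEnd (0 genes), 1 was called with percentiles over the genes marked in all 10 libraries, no trend, without both libraries and per promoter. Calls over all genes were then 303 of 3616, 156 of 7611, 273 of 7586 and 361 of 14843 promoters. For width against Pdgfra+ nEnd (2 genes), 1 was called with equal numbers of peaks, without the lowest 25%, with no centring, with a replicate block and without both libraries. Over all genes, those wider were then 111 of 3205, 101 of 5681, 79 of 7611, 133 of 7611 and 134 of 7586. Against DP nEnd (0 genes) 1 was called with joined peaks, against 16 of 7611 genes wider. Marking did not overlap for 2 genes, *Mtf2* and *Cbx7*, between Oct4+ and Pdgfra+ nEnd with equal numbers of peaks, against 6.13% of marked genes (1 gene, *Ezh1*, otherwise). Under that alternative the 1 gene between Oct4+ and DP nEnd was *Mtf2* in place of *Ezh1*, against 4.59%. Without the lowest 25%, it was 0 between Oct4+ and DP nEnd and 1, *Ezh1*, between DP and Pdgfra+ nEnd, against 0.0726%. Leaving out 1 library gave 0 to 2 genes for total signal against Pdgfra+ nEnd, 0 to 2 against DP nEnd, 0 to 1 for highest coverage and 0 to 2 for width against Pdgfra+ nEnd. Over the 5219 to 7610 genes then tested, calls in either direction were 252 to 1043, 60 to 675, 45 to 247 and 84 to 408. The alternatives without both libraries, on normal scores and per promoter were chosen after seeing the data. The cause of these changes was not tested, apart from the genes that left the fit for want of marked libraries.

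Deviations of same-numbered libraries correlated above 0.1 in 6 of 9 pairs, all 3 of Oct4+ with Pdgfra+ nEnd among them, and 11 of 18 libraries correlated best with their own number. Some differently numbered pairs were above 0.1 too. The highest of all was DP replicate 2 with Pdgfra+ replicate 1, at 0.309, and Oct4+ replicate 4 reached 0.142 with Pdgfra+ replicate 3. With the replicate block, *Mtf2* was called against Pdgfra+ nEnd (61.7 points, adjusted p = 0.011) and DP nEnd (57.8 points, adjusted p = 0.021), while *Cbx7* (42.6 points, adjusted p = 0.071) and the width of *Eed* (0.76, adjusted p = 0.072) were not, and the block changed no other call of the 10 genes. The marking counts come from no fit and were not blocked. With the depth unknown, a missing peak says that none was called at that depth, not that the mark is absent.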
